A study of Mus musculus with 98 samples.

Results

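PAmTEC, the label that the deposited annotation gives to post-Aire medullary thymic epithelial cells (TEC), was carried by 86 of 10300 cells from heterozygous and 46 of 11151 cells from WT newborn thymi, together 0.615% of 21451 cells. The members were all cells with that label, and they were set beside the 518 cells labelled MmTEC (mature medullary TEC) and the other TEC labels, which together held 9083 cells. The cells had been sorted as live Ter119-CD45- stroma, without a gate on EpCAM, from P0 mice heterozygous for both Tbx1 and Crkl (Tbx1+/-Crkl+/-, 3 libraries) and from WT littermates (3 libraries), and had been fixed before capture. In the heterozygotes a lacZ insertion disrupts 1 Tbx1 allele and 1 Crkl allele is null, in every cell of the mouse. Bulk RNA-seq libraries of sorted WT mTEC at P0 and at 4 weeks, and of the mTEChi and mTEClo fractions at 4 weeks (6 libraries each), gave a readout that had no part in the labelling.

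The medulla of the thymus shows self-antigens of other tissues to developing T cells. Mature mTEC express Aire, a transcriptional regulator that opens tissue-restricted genes, together with Fezf2, MHC class II and costimulatory molecules. Some mTEC go on to lose Aire and take up programmes that resemble peripheral tissues: keratinocyte-like cells that build Hassall's corpuscles, tuft-like, microfold-like and ciliated cells, and cells with muscle transcripts. Terminally differentiated keratinocytes are known for Krt10, a suprabasal keratin, Krt80, a keratin of differentiating epithelia, and Spink5, a protease inhibitor of the cornified layer. Skeletal muscle cells are known for Myog, a transcription factor that drives their differentiation, for sarcomere proteins such as Acta1 and Ttn, and for the acetylcholine receptor subunits of the motor endplate.

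The newborn libraries held 4978011 to 31418527 UMIs, with a median of 2391 to 4686 UMIs per cell. Barcodes occurring in more than 1 library were carried by 88 cells, none of them PAmTEC. Tbx1 was nearly absent, with 0, 0 and 8 UMIs in the heterozygous libraries and 13, 6 and 19 in WT. Crkl stood at 23.6 to 26.9 CPM (UMIs per 1000000) in the heterozygotes and 18.4 to 25.1 in WT, so the groups overlapped and the transcript did not check the genotype; whether the sequenced 3' ends lie in the disrupted parts was not given in the sources used here.

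The 3 markers of the label were not detected in most of its cells. Krt10 was at 0, 43.2 and 0 CPM in the PAmTEC of heterozygous replicates 1 to 3 and at 0, 51.0 and 36.8 CPM in those of WT replicates 1 to 3, against a mean of 13.3 CPM in MmTEC and 26.6 CPM in cells labelled Thy (thymocytes). The mean of PAmTEC was 21.8 ± 24.3 CPM (SD, n = 6 libraries). Krt80 averaged 6.68 ± 9.89 CPM in PAmTEC and 7.62 ± 5.81 in MmTEC (SD, n = 6 libraries). Spink5 reached 1683 CPM in WT replicate 2, stood at 64.9 and 22.1 CPM in heterozygous replicate 2 and WT replicate 3, and was at 0 in the remaining libraries. After thinning each cell to 2000 UMIs to level depth, Krt10, Krt80 and Spink5 were detected in 5.10%, 1.02% and 5.10% of 98 PAmTEC cells and in 2.58%, 1.17% and 1.64% of 426 MmTEC, with Krt10 in 6.03% of 282 Thy, 2.99% of capsular fibroblasts (CapFb1b), 2.46% of VSM (vascular smooth muscle) and 1.77% of endothelial cells (EnC). The exact 95% interval of Krt10 in PAmTEC, 1.68 to 11.5%, held all of these Krt10 shares. Spink5 was found after thinning in 0.355% of Thy and in 0% of CapFb1b, VSM and EnC, all below its share of PAmTEC. Krt80 was found in 0% of these labels. The 3 markers left most members unmarked, and the cells are called here by their label, PAmTEC, or by the transcripts they carried.

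The deposited table also gives each cell a cluster, numbered by the authors' own clustering, and the PAmTEC label was spread over several of them. Cluster 18 held 56 of the members, cluster 9 held 57 and cluster 13 held 16, with the last 3 in clusters 8 and 14. Clusters 9 and 13 were mostly made of other labels: 509 of the 714 cells of cluster 13 were MmTEC, and the 954 cells of cluster 9 included 320 ItTEC (intertypical TEC), 238 nTEC (neural TEC) and 213 PcTEC (perinatal cortical TEC). Cluster 18 held 126 cells, 30 of them sTEC (structural TEC) and 19 TlTEC (tuft-like TEC). Since clusters and labels were made from the same expression values, differences between them are given as descriptions without a test. From here on, the cells of a cluster are its PAmTEC members alone, unless another label is named.

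**Figure D1:**
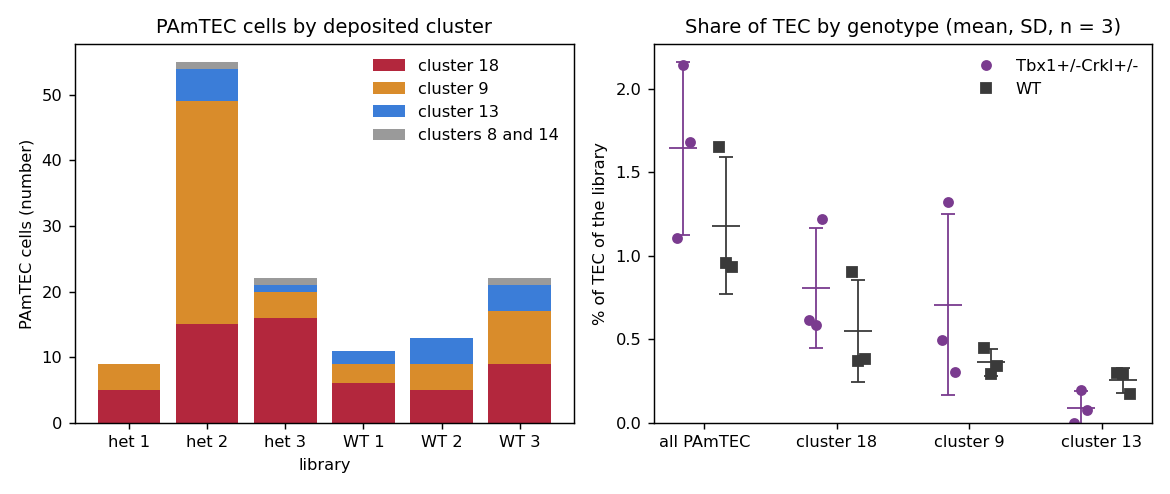
Left, number of PAmTEC cells in each newborn library, stacked by deposited cluster; right, PAmTEC cells, in all and by cluster, as a percentage of the TEC of each library, with points for libraries and bars for mean and SD (n = 3 per genotype). Heterozygous replicate 2 alone held 34 of the 57 cluster 9 cells, and the genotypes overlapped in every category.

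The PAmTEC cells of cluster 18 carried a skeletal muscle programme, and it set the profile of the whole label. Of the 30 genes with the largest mean excess of PAmTEC over MmTEC, all had their highest level in cluster 18, and 20 belonged to lists of muscle genes written after these values had been seen. The 15 genes with the largest excess over the next TEC label were likewise highest in cluster 18, with 13 in the muscle lists. None of either set was in the cornified list, but the 30 were picked among genes higher in all 6 libraries, as 0 of the cornified genes were. In all, 552 genes stood higher in PAmTEC than in MmTEC in all 6 libraries, or 2.88% of the 19142 genes detected in either label.

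Among transcription factors of muscle, Myog was at 507, 93.7 and 341 CPM in PAmTEC of the heterozygous replicates and at 432, 383 and 574 CPM in those of WT. In MmTEC Myog stood at 5.21 to 111.6 CPM, below PAmTEC of the same library in 6 of 6. Within PAmTEC, Myog was found in 39 of 56 cells of cluster 18 and in 0 of 57 and 0 of 16 cells of clusters 9 and 13, counts of 0 that, at 3 counts of the total, allow up to 5.26% and 18.8% of such cells to hold a Myog UMI and set no limit on cells that express it without one. After thinning, 52.2% (exact 95% interval 36.9 to 67.1%) of cluster 18 cells had Myog, against 3.05% of MmTEC, 18.5% of sTEC and 0.273% of VSM. Mymk, which encodes a protein needed for myoblast fusion, was at 119.3 ± 173.6 CPM against 7.81 ± 13.7 in MmTEC. Myod1 and Myf5, which act before Myog, were scarce, with 11 and 2 UMIs in cluster 18, and Pax7, a gene of muscle progenitors, had 0 UMIs in 56 cells.

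The sarcomere genes were the most abundant part of the programme. Acta1, the actin of skeletal muscle, was at 1103, 454 and 1285 CPM in PAmTEC of the heterozygotes and at 66.5, 3494 and 3375 CPM in WT, and at 4.30 ± 5.17 in MmTEC. Myl1, a myosin light chain, was at 2831, 800 and 3504 CPM in the heterozygotes and at 1929, 1454 and 3669 CPM in WT, against 20.3 ± 13.2 in MmTEC. Every library of PAmTEC stood above every library of MmTEC for both genes, a mean difference of 6.08 for Acta1 and 6.27 for Myl1 in log2(CPM + 10). Ttn, which encodes the giant spring protein of the sarcomere, was itself present in MmTEC at 274 ± 108.1 CPM and reached 3956 ± 3573 CPM in PAmTEC. Of a list of 7 genes for ciliated and muscle-type mTEC, 3 were higher in PAmTEC in all 6 libraries, namely Actc1, Ckm and Myog, while Foxj1, the regulator of motile cilia, stood at 13.49 CPM against 21.6 in MmTEC. Of the 25 sarcomere genes, 14 were higher in PAmTEC in all 6 libraries and the median difference was 3.53, against -0.12 over all detected genes.

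A list of 14 genes for the muscle membrane and for other muscle proteins, such as Ckm, followed. Ckm, the muscle creatine kinase, was at 537 ± 372 CPM in PAmTEC and 9.53 ± 19.0 in MmTEC. Ryr1, the calcium release channel, was at 51.0 to 1252 CPM in PAmTEC and at most 5.21 CPM in MmTEC. The acetylcholine receptor subunits Chrna1 and Chrng were found in 20 and 29 of the 56 cluster 18 cells, Chrng being the subunit of the fetal receptor. Of the 14 genes of this list 7 were higher in PAmTEC in all 6 libraries, among them Ckm and Ryr1 but not Chrna1 (4 of 6) or Chrng (5 of 6).

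Nearly all PAmTEC cells of cluster 18 held muscle transcripts. Acta1 was found in 45 of the 56 cells, and in 32 of the 39 with a Myog UMI, so its share was about the same in both. Summed over the 48 genes of the 3 muscle lists, cluster 18 cells held a median of 303 muscle UMIs per 10000, from 9.01 to 1355, and 54 of 56 cells had at least 10 such UMIs. Members in cluster 9 had a median of 12.47 and those in cluster 13 of 8.32 per 10000, near the 11.3 of MmTEC. Muscle-rich cells were found in every library: 5 of 5, 14 of 15 and 16 of 16 cluster 18 cells in the heterozygotes and 6 of 6, 4 of 5 and 9 of 9 in WT. Cells of other labels also reached 10 such UMIs: 90 of 518 MmTEC, 12 of 32 sTEC, 5 of 21 TlTEC and 696 of 866 VSM cells. Myog was seen in 7 of those 866 VSM cells.

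**Figure D2:**
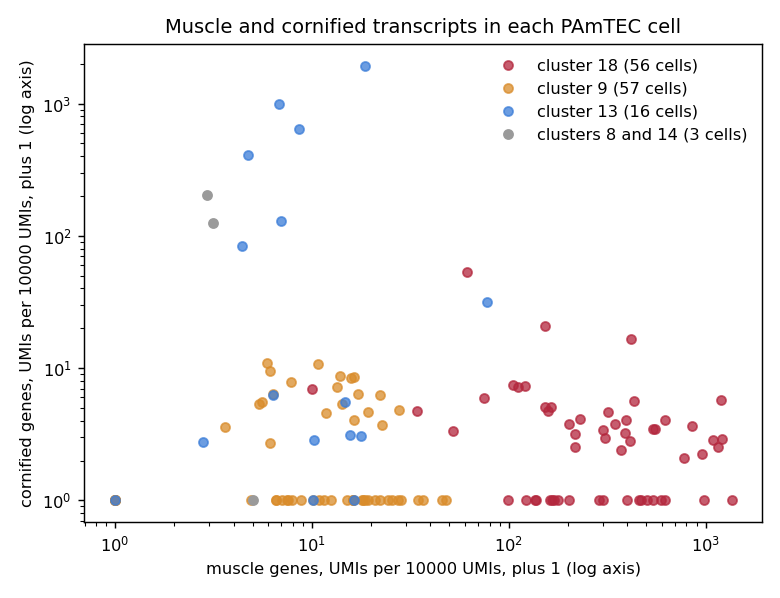
UMIs of 48 muscle genes (horizontal) and of the cornified list (vertical) per 10000 UMIs in each PAmTEC cell, plus 1, on log axes, coloured by deposited cluster. Most cluster 18 cells lie at the right with few cornified UMIs, 6 cluster 13 cells and 2 cluster 14 cells lie at the top left, and the cluster 9 cells lie low on both axes.

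Promoter sequence had no part in the labels, but the genes read here were chosen with the expression values known. The short windows below, from RefSeq promoters of build GRCm38.p6 (250 bases before to 50 after the start), are examples of muscle genes of cluster 18 whose windows held a match: Myl1, Acta1, Mylpf, Des and Klhl41 were among the 30 leading genes, while Chrna1 and Chrng, the receptor subunits, were not. Capitals mark CAGCTG, a palindromic form of the E-box that myogenic factors can bind, or in the last line the MEF2 consensus; each is read 5′ to 3′ on the strand of the gene.
Myl1, chr1:66945263-66945292, minus strand: aggtacgtctgtCAGCTGtcaccaaaccaa
Acta1, chr8:123894979-123895008, minus strand: gggaggggcagaCAGCTGgggatactctcc
Mylpf, chr7:127211545-127211574, plus strand: cttcctgggctcCAGCTGctgcaggcctcc
Des, chr1:75360244-75360273, plus strand: agagggatcctgCAGCTGtcaggggagggg
Chrna1, chr2:73580365-73580394, minus strand: tagctgtggagtCAGCTGgcttccaaggcc
Chrng, chr1:87205644-87205673, plus strand: atatcctgggaaCAGCTGacaatgcagtgg
Klhl41, chr2:69670047-69670076, plus strand: gagccggtgtCTATATTTAGccggtgggat
Of the 48 muscle genes, 36 had a window, and CAGCTG lay in 20 of their 41 windows (48.8%), against 16.3% of all 32851 windows and 7 of 33 windows (21.2%) of the cornified genes. Of the 30 leading genes, 23 had a window, and CAGCTG lay in 13 of their 36 windows (36.1%). The MEF2 consensus, searched on both strands, lay in 5 of the 41 windows (12.2%) and in 7 of the 36 (19.4%), against 3.19% of all windows. These are matches of letters, and no binding was measured. The muscle lists were written after the values had been seen, so their shares describe genes chosen as muscle genes.

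Epithelial transcripts were lower in the cluster 18 cells than in mTEC. After thinning, Epcam was detected in 28.3% of 46 cluster 18 cells (exact 95% interval 15.99 to 43.5%), in 65.5% of 426 MmTEC, in 59.3% of 27 sTEC, and in 7.27% of 1306 capsular fibroblasts, 10.6% of 790 EnC, 5.32% of 733 VSM and 21.6% of 282 Thy. Before thinning the cluster 18 share was 32.1% of 56 cells, with a median of 3522 UMIs per cell against 3170 in MmTEC. The share thus lay below that of MmTEC and above those of fibroblasts, endothelium and VSM, while its interval held that of Thy. Among the 18 cluster 18 cells with an Epcam UMI, 12 had Myog, and Cdh1, the epithelial cadherin, was found in 11 of 56 cells but after thinning in 1 of 46, against 14.3% of MmTEC and 7.80% of Thy. Krt8, a keratin of simple epithelia, was detected after thinning in 23 of 46 cluster 18 cells, in 82.2% of MmTEC, in 53.2% of Thy and in 30.3% of capsular fibroblasts. These intervals cover counting error only.

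Other genes were also high in cluster 18. Meg3, an imprinted long non-coding RNA, stood at 18773 CPM there, against 7652 CPM in capsular fibroblasts and 239 ± 139.3 in MmTEC. It was detected after thinning in 87.0% of cluster 18 cells, but also in 85.7% of cluster 9 cells and 83.9% of nTEC. Cdkn1a, the cell cycle inhibitor p21, was at 527 CPM in cluster 18, and in PAmTEC as a whole it was above MmTEC in 6 of 6 libraries (282 ± 196 against 53.8 ± 28.5 CPM). After thinning it was detected in 41.3% of 46 cluster 18 cells, 21.1% of 19 TlTEC (exact 95% interval 6.05 to 45.6%) and 7.75% of MmTEC. Of the 8 tuft cell genes, 5 had a UMI in cluster 18, and 1 was above MmTEC in PAmTEC of all 6 libraries, against 2.88% of all genes. The list summed to 586 CPM in cluster 18, 11474 in TlTEC and 49.2 ± 27.6 in MmTEC. Dclk1 was detected in 21 of 56 cells, but Pou2f3, the factor that specifies tuft cells, and Il25 were at 0 UMIs.

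The keratinocyte programme named by the markers was carried by few cells. Of all members, 9 had at least 10 UMIs of the cornified list (39 genes in the table): 6 in cluster 13, 2 in cluster 14 and 1 in cluster 18. That was 6.82% of PAmTEC, against 84 of 518 MmTEC (16.2%) and 43 of 1166 ItTEC (3.69%) at the same cut of 10 UMIs, without levelling depth. The cut does not show the level within a cell. Per 10000 UMIs, no MmTEC cell exceeded 199.2 cornified UMIs (median 6.87). The 4 members of WT replicate 2 in cluster 13 held 409.5 to 1932.8 per 10000. A cluster 14 cell of heterozygous replicate 2 held 202.02 per 10000, and the rest of the 9 lay below 199.2. The 6 cells of cluster 13 came from WT replicate 2 (4 cells) and WT replicate 3 (2 cells). They held 97 to 552 cornified UMIs each, against 0 to 6 in the other 10 PAmTEC cells of that cluster. Of the 1352 cornified UMIs in PAmTEC cells of cluster 13, 82.1% came from the 4 cells of WT replicate 2. No library of the heterozygotes held such a cell in cluster 13, although 1 of the 2 in cluster 14 came from heterozygous replicate 2 and the other from WT replicate 3.

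Levels over the whole label followed those few cells. Cst6, an inhibitor of cathepsins in the skin, had 290 UMIs in 6 cluster 13 cells, not quite the same 6 as above. A cell of WT replicate 1 with 6 cornified UMIs held 4 of them, and the cell of WT replicate 3 with 97 cornified UMIs held 0. In PAmTEC by library Cst6 stood at 656, 0 and 22.0 CPM in the heterozygotes and at 133, 7217 and 29.4 in WT, and the value of heterozygous replicate 1 came from cluster 18, where a single cell held 22 of 24 UMIs. Krtdap, a protein of differentiating keratinocytes, was at 2091 CPM in WT replicate 2, at 199 in WT replicate 3 and at no more than 22.0 in the other libraries, and Sprr1a, a precursor of the cornified envelope, was at 5202 CPM in WT replicate 2 and at no more than 51.5 elsewhere. Asprv1, a skin protease that processes filaggrin, was at 3009 CPM in WT replicate 2 but below MmTEC in the other 5 libraries. Of the 39 cornified genes measured, 33 had their highest level in cluster 13, and their median difference from MmTEC was 0.03. Above MmTEC in all 6 libraries were 0 of them, against 2.88% of all genes. Heterozygous replicate 1 held no PAmTEC cell of cluster 13, so this 0 says little about the list. Summed, the list averaged 5506 ± 11270 CPM in PAmTEC and 1242 ± 626 in MmTEC, and without WT replicate 2 PAmTEC libraries ranged from 198 to 2257 CPM.

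The PAmTEC members of cluster 13 rich in cornified transcripts held no Aire. MmTEC rich in cornified transcripts were not looked at for Aire. None of these 6 members had an Aire UMI, while 8 of the other 10 members in cluster 13 did, with 40 Aire UMIs in all. These counts rest on few cells, the 6 from WT replicates 2 and 3 alone, and were not tested. Spink5 and Krtdap were found together in 5 cells. Several further transcripts of cluster 13 came from 1 cell each: all 128 Tslp UMIs (a cytokine of epithelia), all 114 Pyy UMIs (a gut hormone) and all 74 Saa1 UMIs (an acute phase protein).

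Genes of the Aire stage were lower in PAmTEC than in MmTEC. Aire was at 0, 144.2 and 22.0 CPM in PAmTEC of the heterozygotes and at 632, 0 and 14.7 CPM in those of WT, and at 1338 to 2596 CPM in MmTEC. No PAmTEC library overlapped those of MmTEC, and 40 of its UMIs lay in cluster 13 against 2 in cluster 18 and 1 in cluster 9. Fezf2 was at 57.03 ± 48.1 against 526 ± 165 CPM, and Cd80, a costimulatory ligand, at 4.88 ± 8.90 against 109 ± 13.9. Of the 15 genes of this list 11 were below MmTEC in all 6 libraries, with a median difference of -1.72, against 7.53% of all genes. For MHC class II it was 11 of 11 genes, with a median of -2.92. Cd74, the invariant chain, was at 1011 to 5654 CPM in PAmTEC and 9329 to 27640 CPM in MmTEC, and Ciita, the transactivator of these genes, at 11.5 ± 14.9 against 183 ± 55.9. After Aire, the genes furthest below MmTEC were Calcb and Utf1, at 31.7 ± 44.5 against 830 ± 165 CPM and at 14.5 ± 24.2 against 422 ± 144.1 CPM. In cluster 13 the summed MHC class II level rested on WT replicate 3, with 1121 of 1492 UMIs and 34848 CPM, while the other libraries with such cells stood at 3872 to 10960 CPM and overlapped those of cluster 18 (1613 to 4371 CPM) and cluster 9 (1721 to 5720 CPM).

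**Figure D3:**
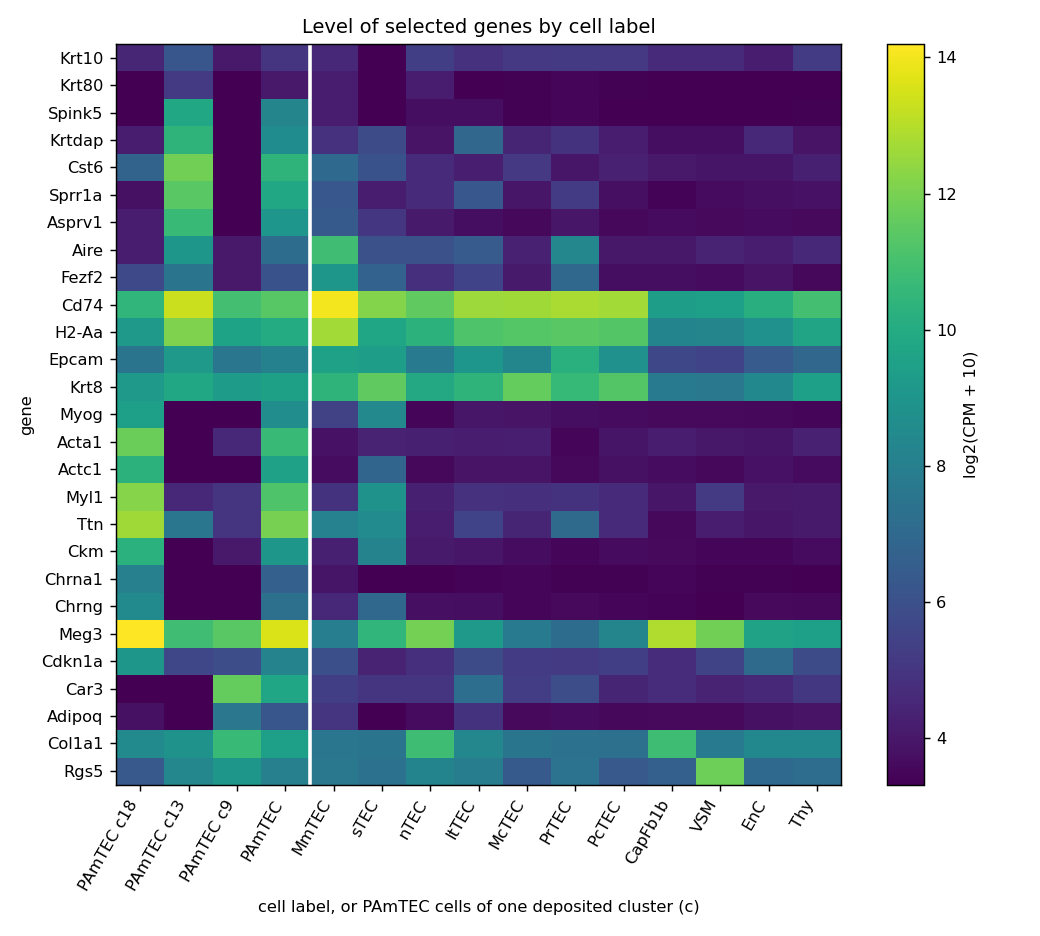
Level of 27 genes, as log2(CPM + 10), in PAmTEC cells of clusters 18, 13 and 9 (UMIs pooled over libraries) and in whole labels (mean over libraries with at least 5 cells). Muscle genes are bright in the cluster 18 column, cornified genes in the cluster 13 column, and Car3 and Col1a1 in the cluster 9 column.

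The cells of cluster 9 carried neither programme, and held transcripts of other cell types. Their fibroblast list (6 genes) summed to 6308 CPM, against 1806 in cluster 18 and 1115 ± 443 in MmTEC, and Col1a1 was detected in 45 of 57 cells. After thinning, Col1a1 was found in 71.4% of 35 cluster 9 cells, 94.2% of capsular fibroblasts, 89.1% of nTEC, a main label of cluster 9, and 24.4% of MmTEC. Col3a1 and Pdgfra likewise were found in 88.6% and 22.9% of these cells and in 98.9% and 41.95% of nTEC, shares above those of the PAmTEC. The mural list summed to 1075 CPM, against 684.8 in cluster 13, 716.2 in nTEC and 433 ± 79.3 in MmTEC. The thymocyte list summed to 265 CPM, against 329.2 in cluster 13, 155.1 in nTEC and 71.7 ± 43.4 in MmTEC. Fat cell genes were high in some of the cells: Car3, a carbonic anhydrase of fat and muscle, had 454 UMIs in 14 cells and Adipoq, the adipocyte hormone adiponectin, 27 UMIs in 9 cells, while in cluster 13 both were at 0. Car3 was at 2295, 2249 and 374 CPM in PAmTEC of the heterozygotes and at 0, 0 and 228 CPM in those of WT. A list of 14 fat cell genes was written after these values had been seen. It summed to 7676 CPM in cluster 9, 2357 in cluster 13 and 658 in cluster 18, against 14256 in EnC and 1212 ± 378 in MmTEC. Of its genes 0 were above MmTEC in all 6 libraries, against 2.88% of all genes, so the 0 says little about the list. At least 10 UMIs of the fat list were held by 13 of 57 cluster 9 cells and 7 of 16 cluster 13 cells, with medians of 19.2 and 15.2 per 10000. Epcam was detected after thinning in 7 of 35 cluster 9 cells (exact 95% interval 8.44 to 36.9%), an interval that held the shares of Thy, endothelium and nTEC (27.0%) and lay above those of capsular fibroblasts and VSM. Krt8 was detected in 57.1% of them (39.4 to 73.7%), against 81.03% of nTEC, 53.2% of Thy, 34.05% of EnC and 24.4% of VSM. Median depth was lower in cluster 9, at 2198 UMIs per cell, than in cluster 18 (3522) and cluster 13 (4099). Whether these transcripts came from the cells themselves was not tested.

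The comparison of genotypes asked whether heterozygosity for Tbx1 and Crkl changed the share of PAmTEC among TEC. PAmTEC made up 1.11%, 2.14% and 1.68% of TEC in the heterozygotes (9 of 812, 55 of 2571 and 22 of 1310 cells) and 1.65%, 0.954% and 0.931% in WT (11 of 666, 13 of 1362 and 22 of 2362). The groups overlapped, WT replicate 1 lying above heterozygous replicate 1. The means were 1.64% ± 0.516 and 1.18% ± 0.409 (SD, n = 3), with p = 0.20 in an exact two-sided permutation test, which cannot go below 0.10 with 3 against 3. The quasi-likelihood test of edgeR on cells per label gave a log2 difference of 0.58 ± 0.36 (SE), adjusted p = 0.46. Of all PAmTEC in heterozygous replicate 2, 61.8% lay in cluster 9, against 18.2 to 44.4% in the other libraries, and leaving cluster 9 cells out of the count lowered the difference to 0.31 ± 0.42 (adjusted p = 0.58). By cluster, the difference was 1.13 ± 0.61 for the cells of cluster 9 (adjusted p = 0.40), 0.69 ± 0.50 for the cells of cluster 18 (adjusted p = 0.49) and -0.93 ± 0.68 for those of cluster 13 (adjusted p = 0.49). As a percentage of all cells, PAmTEC stood at 0.533%, 1.03% and 0.670% in the heterozygotes and 0.463%, 0.417% and 0.389% in WT, without overlap (exact permutation p = 0.10, the smallest possible; edgeR adjusted p = 0.41). After adjustment no difference by genotype was shown for any of these counts.

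Genes within PAmTEC were compared between 2 heterozygous and 3 WT libraries, since heterozygous replicate 1, with 9 cells, was under the minimum of 10. Of 1936 genes tested by edgeR, 0 (0%) passed an adjusted p of 0.05, and 56 had an unadjusted p under 0.05. DESeq2 called 1 gene, Sprr2d, a small proline-rich gene of the cornified envelope that was in none of the lists and is named after its value was seen. The 0 depended on the setting: it became 57 without a filter on low counts, 63 with at least 20 cells a library (1 WT library) and 91 with the replicate block, mostly lower in heterozygotes. The lowest p belonged to Crct1, a cornified gene. It was at 7.21 and 0 CPM in heterozygous replicates 2 and 3 and at 0, 918 and 412 CPM in WT replicates 1 to 3. Cells of cluster 13 rich in cornified transcripts came from WT replicates 2 and 3 alone, but a cell of cluster 14 with 104 cornified UMIs came from heterozygous replicate 2. Of the Crct1 UMIs in PAmTEC, 92 lay in 5 cells of cluster 13 and 1 lay in all other members. A difference by genotype without these cells was not tested. Muscle transcripts varied within genotypes: in cluster 18 the sarcomere list summed to 38898, 15225 and 29206 CPM in the heterozygotes and to 14389, 53658 and 66713 CPM in WT, with overlap. Within cluster 18 in all 6 libraries, a comparison added after the data were seen, 0 of 406 genes passed; the lowest adjusted p was 0.054, for Cdkn1c, a cell cycle inhibitor at 1181 to 2153 CPM in the heterozygotes and 5356 to 17295 CPM in WT, with no overlap.

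Bulk libraries of sorted mTEC held transcripts of both programmes, and some genes of each differed between P0 and 4 weeks. Age, day of sorting and preparation cannot be told apart in this comparison. In bulk, fewer cells of a type and less RNA per cell cannot be told apart. In mTEC at 4 weeks against P0, 547 of 17472 genes tested were higher at 4 weeks (3.13%) and 425 were higher at P0 (2.43%) by edgeR at an adjusted p of 0.05. Replicate 3 of mTEC at 4 weeks, a DFCK library, stood apart, with the fewest reads (5785352), Cd74 at 22549 CPM against 58024.5 to 79267 in the other 5, and Cd80 at 0. Of the cornified list, 12 of 39 genes tested (30.8%) rose at 4 weeks and 0 fell, with a median log2 difference of 1.16 against -0.14 over all genes. Of the 25 tested genes among the 30 that led PAmTEC, 5 were higher at P0 and 0 at 4 weeks. The 3 muscle lists gave 6 of 46 (13.04%) higher at P0, namely Myog, Acta1, Myl1, Ckm, Atp2a1 and Chrng. Within the 3 and 3 libraries whose titles carry the prefix DFCK, 0 genes of the cornified and 0 of the muscle lists passed, where 3 of 15863 genes did in all (0.0189%), so those counts say little about the lists. Within the libraries with the prefix TXCK 16 and 4 passed, against 4.4% of all genes. Without replicate 3, left out after the data were seen, 15 of 39 cornified genes rose at 4 weeks (3.78% of all genes did) and 0 fell. The muscle lists then gave 9 of 47 higher at P0 (3.65% of all genes), Myl1 no longer passing (adjusted p = 0.052). The DFCK libraries then gave 0 and 0, where 0.179% of all genes passed. Of the fibroblast list 1 of 6 genes was then higher at P0.

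Krtdap in bulk mTEC ran from 2.65 to 4.49 CPM (median 3.14) at P0 and from 24.5 to 67.7 CPM (median 39.0) at 4 weeks. The age groups did not overlap, and the log2 difference was 3.67 ± 0.38 (SE, edgeR adjusted p = 0.00013). Spink5 ran from 3.82 to 21.1 CPM (median 9.68) at P0 and from 23.7 to 370 CPM (median 175.2) at 4 weeks, a difference of 4.01 ± 0.55 (adjusted p = 0.00097). Krt10 rose by 3.51 ± 0.65 (adjusted p = 0.0069), although its lowest library at 4 weeks, at 12.4 CPM, lay within the P0 range of 4.46 to 25.8 CPM. Krt80, the other marker of the label, did not pass (0.75 ± 0.98, adjusted p = 0.79).

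Of the muscle genes, only those 6 of 46 tested passed with age, each higher at P0. Myog ran from 85.5 to 343 CPM (median 246) in bulk mTEC at P0 and from 12.8 to 85.5 CPM (median 43.6) at 4 weeks. The difference was -2.31 ± 0.44 on the log2 scale (edgeR adjusted p = 0.0080), with the highest library at 4 weeks just under the lowest at P0. Chrng ran from 82.6 to 134.1 CPM at P0 and from 0 to 9.22 CPM (median 0) at 4 weeks (adjusted p = 0.019), so P0 libraries stood apart. Acta1 was at 160 to 363 CPM at P0 and 0.346 to 122.6 CPM at 4 weeks (-2.66 ± 0.68, adjusted p = 0.040). Ttn did not pass (-1.22 ± 0.78, adjusted p = 0.50). Without the 4-week library that stood apart, which held the lowest level at 4 weeks of Myog, Acta1, Spink5 and Krt10, the differences were -2.13 for Myog, -2.31 for Acta1, 3.63 for Krtdap, 4.24 for Spink5 and 3.81 for Krt10 (adjusted p = 0.0070, 0.0032, 0.00015, 0.00016 and 0.00085). The direction was the same within each of the title prefixes DFCK and TXCK for Myog (-2.46 and -2.16), Krtdap (3.26 and 4.08) and Spink5 (3.67 and 4.34). Of the lists for other cell types, the fibroblast, mural, endothelial and thymocyte genes had 0 of 6, 0 of 4, 0 of 3 and 0 of 9 called with age. The epithelial list had 5 of 9 genes higher at 4 weeks. Of the cortical list 2 of 9 genes were higher at P0, against 2.43% of all genes, and 0 at 4 weeks. Of 12 MHC class II genes 6 were higher at 4 weeks, against 3.13% of all genes, and 1 at P0. The part of the epithelial, cortical and MHC class II lists in these results was not tested.

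At 4 weeks mTEClo was set against mTEChi, names in common use for mTEC with low and high levels of CD80 and MHC class II. CD80 and MHC class II were among the stains of the study, but which of them drew this gate was not found in the sources used here. Sample numbers in the titles run in the same steps in both fractions. Whether they pair fractions of the same mouse was not found, and the fit did not pair them. Of 17339 genes tested, 1025 (5.91%) were higher in mTEClo and 2613 (15.1%) were higher in mTEChi, with a median of -0.25 over all genes. The Aire-stage and MHC class II lists followed the names: 12 of 15 and 11 of 12 genes were higher in mTEChi and 0 in mTEClo. Of the 25 tested genes among the 30 that led PAmTEC, 5 were higher in mTEClo, namely Myog, Myl1, Mybpc1, Rbm24 and Ccdc141, and 0 in mTEChi. Lists of other cell types moved too: of the mural list 2 of 4 genes, Acta2 and Rgs5, were higher in mTEClo (1.64 ± 0.24 and 0.63 ± 0.13, adjusted p = 0.00066 and 0.0043), as were 4 of 8 tuft genes, while 0 of 6 fibroblast and 0 of 5 endothelial genes were called and 1 of the 7 thymocyte genes tested was higher in mTEChi. The cortical list split into 3 and 3 of 9, with Ctsl, a cathepsin of cortical TEC, higher in mTEClo by 2.80 ± 0.26 (adjusted p = 2.5e-05), and the fat list into 1 and 5 of 13. The part of these lists in the muscle result was not tested. Myog ran from 46.2 to 207 CPM (median 138.7) in mTEClo and from 21.5 to 63.0 CPM (median 30.8) in mTEChi, a difference of 1.72 ± 0.38 (edgeR adjusted p = 0.0068) with overlap at the edges. Other muscle genes were higher in mTEChi (Myh3, Tnni1, Tnnc1, Cacna1s and Myod1), so the 3 muscle lists together split into 6 and 5 of 44. Of the cornified list 1 gene, Dsc2, was higher in mTEClo, 6 (15.4%) were higher in mTEChi (Tgm3, Tgm5, Ly6d, Lce3b, Sprr1b and Sprr3), and Spink5 did not differ beyond the spread (0.81 ± 0.56, adjusted p = 0.38).

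**Figure D4:**
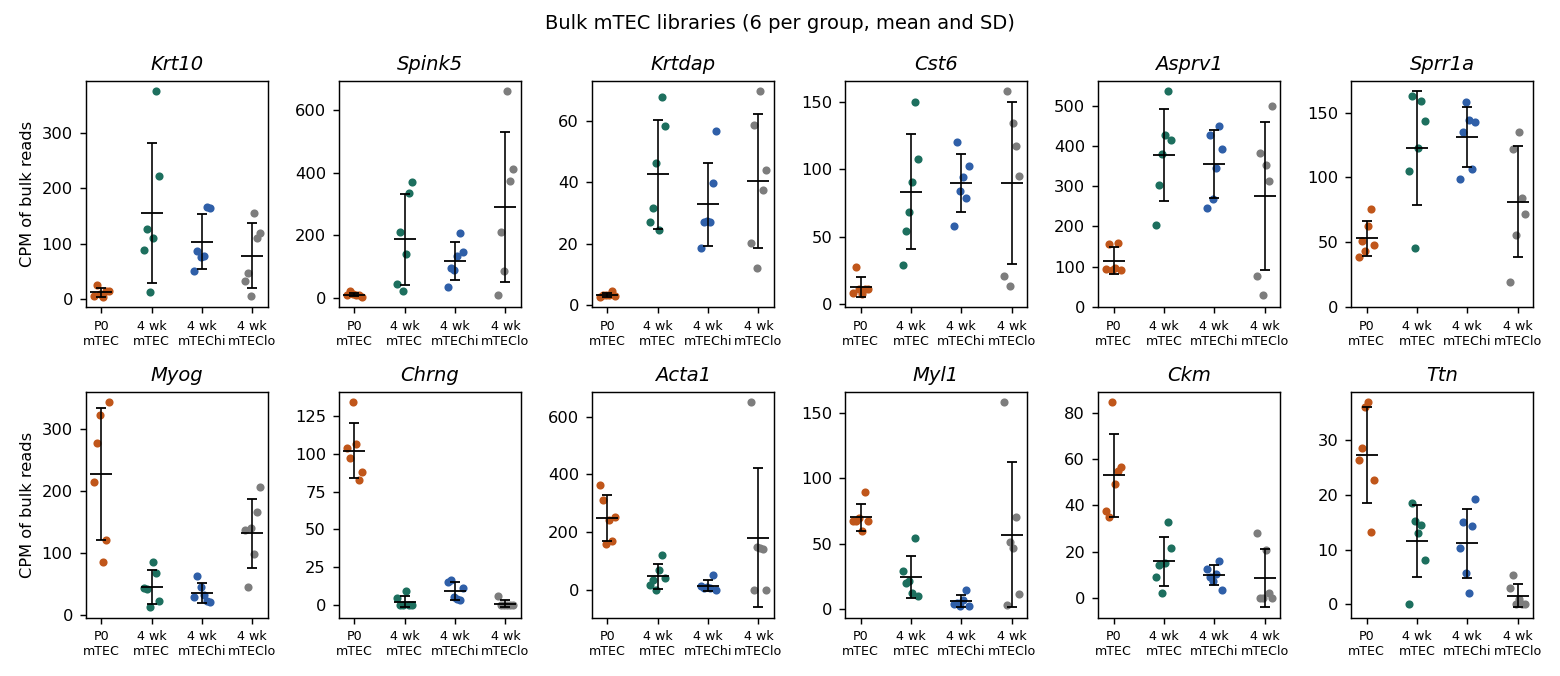
CPM of bulk reads for 6 cornified genes (top row) and 6 muscle genes (bottom row) in WT mTEC at P0, mTEC at 4 weeks, mTEChi and mTEClo, with a point per library and mean and SD (n = 6 per group). Cornified genes are lower in mTEC at P0 than at 4 weeks, Myog, Chrng, Acta1, Myl1 and Ckm are higher at P0 without overlap, and single mTEClo libraries stand far above the others for Acta1 and Myl1.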

How the data were processed

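For the newborn libraries the authors provided UMI counts for every cell and gene, made with Cell Ranger 3.1.0, with cells filtered on more than 1000 genes and under 5% mitochondrial UMIs, doublets removed with DoubletFinder and libraries integrated in Seurat; the lowest number of genes in a cell was 876. The label and the cluster of each cell were taken as deposited. The authors deposited whole read counts per Ensembl gene for the bulk libraries; the submitters' processing notes name STAR 2.5.3a and HTSeq, and builds mm10 and GRCh38 without a role. Of bulk reads, 11.3 to 15.6% lay in rows of no gene (98 rows), which were left out, and 37607 of 39179 IDs had a symbol. Bulk mTEC libraries held 5785352 to 14454727 reads in genes.

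UMIs were summed per label and library and scaled to CPM; means are over libraries with at least 5 cells, and differences between labels are in log2(CPM + 10). For shares of cells with a UMI, each cell was thinned to 2000 UMIs, leaving out shallower cells (98 PAmTEC cells stayed). Shares carry exact (Clopper-Pearson) 95% intervals, which cover counting error only. Counts were tested with edgeR 4.0.16 (quasi-likelihood, TMM, filterByExpr, Benjamini-Hochberg; bulk fits with the title prefix as a covariate) and DESeq2 1.42.0 as an alternative, in R 4.3.3; SE values are the fold change over the root of F. The fits were tested on simulated counts. Bulk counts were not stated to use strand, so reads of overlapping genes cannot be told apart. Where nothing names the mouse behind a library, p-values measure only the spread between libraries.

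Named genes were the 30 with the largest and the 15 with the lowest mean difference from MmTEC (at least 100 CPM and the same direction in every library), the 15 with the largest difference from the next TEC label, and list members at 50 CPM or more. Members and lists were chosen with earlier results of these data known, and the muscle and fat lists and the split by cluster after the values were seen.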

Additional observations from a re-analysis of the deposited data

Results flagged for a closer look

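For the 12 genes plotted in the bulk mTEC libraries, 6 of 48 groups of 6 libraries held a library far from the others by Dixon's test, which chance gives in about 1 of 20 groups. The high ones at P0 were Krtdap in replicate 5 (4.49 CPM, the next at 3.31), Cst6 in replicate 2 (27.2 CPM, the next at 11.4) and Myl1 in replicate 5 (89.5 CPM, the next at 69.7). In mTEChi, Acta1 stood at 53.9 CPM in replicate 5, with the next library at 15.4. In mTEClo replicate 1, Acta1 reached 650.1 CPM with the next library at 149.1, and Chrng was at 6.11 CPM with the other 5 libraries at 0.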

How the results depend on the processing

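The PAmTEC share of TEC did not pass in any of 14 alternatives. As a share of all labelled cells its log2 difference was 0.85 (adjusted p = 0.41), and it ran from 0.38 (without heterozygous replicate 2) to 0.83 when a library was left out; counted over cluster 9 alone it was 1.13, and over cluster 13 alone it reversed to -0.93. The deviations of same-numbered libraries correlated at 0.23, -0.05 and -0.64, which cannot settle whether the replicate numbers pair the libraries. With the numbers as a replicate block the share differed by 0.55 (edgeR adjusted p = 0.67). The count of genes by genotype within PAmTEC was fragile: 0 became 1 with DESeq2, 57 without a filter, 63 with at least 20 cells a library (2 heterozygous libraries against WT replicate 3 alone, assumed to vary like the others) and 91 with the replicate block, which left 1 residual degree of freedom; 51, 57 and 83 of the last 3 counts were lower in heterozygotes, with 11, 4 and 15 of them in the cornified list. Leaving out a library gave 0 to 3 genes, the 3 (Car3, Pth and Chga) without heterozygous replicate 3, which leaves heterozygous replicate 2 as the lone library of its arm, assumed to vary like WT. In bulk, DESeq2 gave 8 in place of 5 leading genes higher at P0, 1 cornified gene higher at P0, and 3 leading genes higher in mTEChi; without the prefix covariate, 1 in place of 6 cornified genes was higher in mTEChi and 3 in place of 5 leading genes in mTEClo. The other alternatives kept these counts within 1.5 times, the cornified genes higher at 4 weeks numbering 12 to 16. Of the 30 leading genes, 23 to 29 were named again when a library was left out, the fewest without WT replicate 1, and 25 to 28 with other scalings. No cornified gene was above MmTEC in every library under any alternative for levels. That says little, since the cluster 13 cells rich in cornified transcripts came from WT replicates 2 and 3 alone. With 0 to 34 cells of a cluster in a library, levels by cluster rest on few cells.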

Other observations

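Other lists by label, as values. Keratinocyte transcription factors (17 genes) summed to 886 ± 481 CPM in PAmTEC and 669 ± 28.8 in MmTEC, with Klf4 at 227 ± 189 against 175.3 ± 31.7 and Ovol1 at 1 UMI in the 56 cluster 18 cells. Lipid barrier genes (16 genes) summed to 306 ± 271 against 153 ± 23.8 CPM, and protease inhibitors and kallikreins (19 genes) to 622 ± 550 against 909 ± 517 CPM, with 15 of these 19 highest in cluster 13. Tissue antigens under Aire (7 genes) summed to 171.7 ± 237 against 1379 ± 749 CPM. Microfold genes summed to 71.8 ± 76.0 against 282 ± 78.8 CPM, neuroendocrine genes to 163.02 ± 292 against 207 ± 67.6 CPM, and cytokines to 401 ± 515 against 516 ± 223 CPM. Genes of immature mTEC (10 genes) summed to 1781 ± 1644 against 2464 ± 1089 CPM, and Ccl21a, the chemokine that draws thymocytes to the medulla, was below MmTEC in 6 of 6 libraries at 132.3 ± 143.9 against 605 ± 614 CPM. Cortical genes summed to 4158 ± 2046 against 3812 ± 1253 CPM and cycle genes to 497 ± 160 against 315 ± 55.9 CPM. Stress genes summed to 2285 ± 698 against 2015 ± 461 CPM, myeloid genes to 40.3 ± 40.4 against 390 ± 204 CPM, endothelial genes to 198 ± 184.2 against 65.1 ± 58.5 CPM, and red cell and parathyroid genes to 228 ± 431 against 150 ± 251 CPM. In bulk mTEC at 4 weeks against P0, 6 of 19 protease inhibitor genes, 4 of 19 lipid barrier genes and 3 of 5 microfold genes were higher at 4 weeks by edgeR, against 3.13% of all genes, and 0 of each were higher at P0, against 2.43%.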
